A study of Mus musculus with 53 samples.

Results

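The Ly6 genes described here are Ly6a, Ly6c1, Ly6c2, Ly6d, Ly6e and Ly6g, 6 of the 55421 genes counted in 53 RNA-seq libraries from mouse intestine. They were chosen by symbol, with the results of BRAF-mutant colon against WT colon already known, so that their levels in those comparisons are given as a description, without a test. Each was found once in the count table, and each was followed in all 11 groups.

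Ly6 proteins are small, disulphide-bonded proteins of the Ly6/uPAR fold, and most are held on the outer face of the cell membrane by a GPI anchor. Ly6a is Sca-1, a marker of mouse haematopoietic stem cells and of regenerating and foetal-like intestinal epithelium. Ly6c1 and Ly6c2 together make the Ly6C antigen of monocytes and endothelium, Ly6d marks B-lymphoid progenitors and squamous and some luminal epithelia, Ly6e is a broadly expressed interferon-inducible member, and Ly6g carries the epitope by which mouse neutrophils are usually sorted. Ly6a, Ly6c and Ly6e are also known to respond to interferon.

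Every mouse carried VilCreER, a tamoxifen-inducible Cre driven by the villin promoter in intestinal epithelium, and WT mice carried it alone. In proximal colon on a mixed C57BL/6J N6 background, there were endpoint tumours of BrafV600E/+ Alk5fl/fl mice (BA, n = 4) with WT tissue (called adult WT colon, n = 3), and, at day 30 (d30) after induction, BA tissue (n = 5), BA tissue under antibiotics (n = 5), Alk5fl/fl tissue (A, n = 4), A tissue after sulindac (n = 4) and WT tissue (n = 4). Antibiotics were metronidazole, ampicillin and neomycin trisulphate at 1 g/L each and vancomycin at 500 mg/L in drinking water from the day after tamoxifen, and sulindac, an inhibitor of prostaglandin synthesis, was given at 0.4 g/L for 14 days before a return to normal water. In small intestine, acute Apcfl/fl tissue (n = 10) was set against WT tissue (n = 6) at day 4 on the same N6 background, and tumours of Apcfl/+ mice (n = 5) against WT tissue (called adult WT small intestine, n = 3) on an inbred C57BL6/J background (N9, 99.8%). The libraries came from whole tissue, and recombination was restricted to the epithelium, so that a lower level may stand for fewer cells of a type or for less RNA per cell, which cannot be told apart.

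All 6 genes lie in a single cluster on chromosome 15 (GRCm38). Ly6d (ENSMUSG00000034634, 74762056-74763620, minus strand) came first, followed by Ly6e (ENSMUSG00000022587, 74955051-74959905, plus strand), Ly6a (ENSMUSG00000075602, 74994877-74998031, minus strand), Ly6c1 (ENSMUSG00000079018, 75044018-75048830, minus strand), Ly6c2 (ENSMUSG00000022584, 75108158-75111970, minus strand) and Ly6g (ENSMUSG00000022582, 75155240-75159126, plus strand). The first 120 coding bases of the 4 members with the most similar coding sequences are shown because they bear on whether a short read can be assigned to a single member. Capitals mark bases that differ from Ly6c1.
Ly6c1: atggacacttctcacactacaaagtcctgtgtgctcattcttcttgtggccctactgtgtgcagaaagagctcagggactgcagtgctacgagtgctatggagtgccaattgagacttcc
Ly6c2: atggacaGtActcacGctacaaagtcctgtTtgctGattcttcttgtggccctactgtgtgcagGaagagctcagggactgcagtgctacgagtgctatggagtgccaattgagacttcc
Ly6a: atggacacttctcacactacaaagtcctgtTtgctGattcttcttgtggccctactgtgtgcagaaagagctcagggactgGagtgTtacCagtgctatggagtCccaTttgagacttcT
Ly6g: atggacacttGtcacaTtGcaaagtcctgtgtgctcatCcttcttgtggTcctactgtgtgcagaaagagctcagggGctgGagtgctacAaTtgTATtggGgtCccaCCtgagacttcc
In this stretch, Ly6c2 differed from Ly6c1 at 6 bases, Ly6a at 8 and Ly6g at 16. Over the whole coding sequence, Ly6c1 and Ly6c2 were identical at 387 of 396 aligned bases (97.7%), with a longest identical run of 188 bases. Ly6a was 83.2% identical to Ly6g and 82.0% to Ly6c1, and Ly6g was 79.8% identical to Ly6c1 and 78.3% to Ly6c2. Ly6d and Ly6e were 50% to 53.8% identical to the other members and to each other.

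Reads were 36 bases long, and words of this length were counted over the exons of each gene. For Ly6c1, 42.9% of the 36-base words of its exons occurred in another gene, including 28.9% in Ly6c2 and 14.6% in Ly6a. The share was 28.8% for Ly6a, of which 20.3% of the words were found in Ly6c1 and 4.26% in Ly6c2, and 20.9% for Ly6c2. Ly6g shared 6.51% of its words with other genes, 3.31% with Ly6i and 0.773% (7 words) each with Ly6c1 and Ly6c2, and 0 with Ly6a. Ly6e shared 0.246% of its words and Ly6d 0. The sources used here do not give the treatment of reads that fit more than 1 place or the strand setting. The levels of Ly6a, Ly6c1 and Ly6c2 are therefore uncertain to the extent that reads could be split between them, whereas Ly6g, Ly6d and Ly6e shared few words or none.

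**Figure D1:**
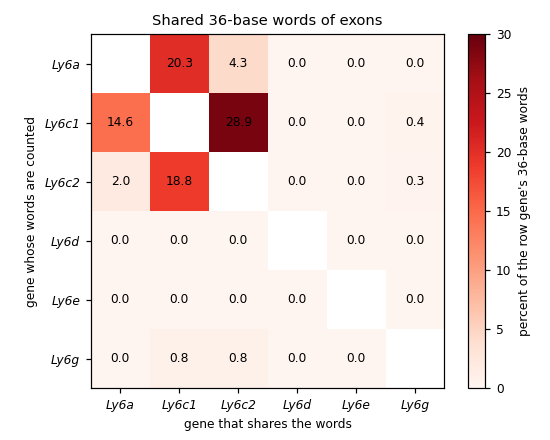
Share of the 36-base exonic words of each Ly6 gene (rows, percent of all its words, also given by shade) that occur in the exons of each other member (columns). The highest shares are those of Ly6c1 with Ly6c2 (28.9%), Ly6a with Ly6c1 (20.3%) and Ly6c2 with Ly6c1 (18.8%), whereas Ly6d and Ly6e share 0 with every member and Ly6g under 1% with any.

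Promoter sequence was at hand for 3 of the 6 members. Ly6c1 and Ly6g are shown because both stood higher in BA tissue, and Ly6c2 because it did not although its coding sequence is nearly that of Ly6c1. The sequences are from RefSeq (GRCm38.p6), each 120 bases long and on the strand of the gene, and capitals mark the longest run shared with Ly6g, or for Ly6g the run shared with Ly6c1. The stretches lie at unlike distances from the gene start. The marked run begins at base -110 from it in Ly6c1, -66 in Ly6g and -206 in Ly6c2.
Ly6c1, chr15:75048869-75048988, minus strand: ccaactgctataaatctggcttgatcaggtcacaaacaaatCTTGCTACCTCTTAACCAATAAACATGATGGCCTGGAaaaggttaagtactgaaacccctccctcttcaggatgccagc
Ly6g, chr15:75155141-75155260, plus strand: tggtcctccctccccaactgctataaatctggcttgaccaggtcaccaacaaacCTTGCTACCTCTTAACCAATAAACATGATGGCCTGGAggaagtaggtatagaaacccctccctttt
Ly6c2, chr15:75112102-75112221, minus strand: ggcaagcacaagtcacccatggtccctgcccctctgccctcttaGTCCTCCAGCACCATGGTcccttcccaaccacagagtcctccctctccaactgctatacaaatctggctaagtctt
The run common to Ly6c1 and Ly6g was 37 bases long and occurred in windows of these 2 genes alone among 32851 promoter windows, of 250 bases before to 50 bases after a gene start. The longest run common to Ly6c2 and Ly6g was 18 bases and was also present in Ly6a2. The motif TATAAA, sought on both strands, was present in the Ly6c1 and Ly6g windows, absent from the Ly6c2 window, and present in 12.4% of all windows. Near its end the Ly6c2 stretch holds tatacaaat in a setting where those of Ly6c1 and Ly6g hold tataaat. The part of these sequences in the levels was not tested.

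Reads on genes ran from 516985 to 32824795 per library (median 18356939). The shallowest library was d4 Apcfl/fl replicate 1, in which 3 reads correspond to 5.80 CPM (counts scaled to library size). Tgfbr1, which encodes Alk5, had 41.9 to 58.2 normalised CPM in d30 BA and 34.7 to 65.2 in d30 WT, but a count over a whole gene in whole tissue does not resolve the floxed exons and checks no label. The 16 genes of an epithelial list summed to 8473 normalised CPM or more in every library. Reads on Gm13394, a processed Gapdh copy, passed 10 CPM in all d30 libraries with an Alk5fl/fl genotype and in 0 of 4 d30 WT, in 3 of 4 BA tumours and 0 of 3 WT, in 3 of 3 adult WT small intestines and 0 of 5 Apcfl/+ tumours, and in 6 of 10 d4 Apcfl/fl and 3 of 6 d4 WT. Gm13394 and genotype cannot be told apart in d30 against WT or in Apcfl/+ tumours against WT, whereas BA against A, antibiotics and sulindac each compare libraries on the same side.

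The 6 genes differed widely in how they were distributed over the groups. All levels below are normalised CPM (TMM scaling over the 53 libraries). Ly6g, Ly6a and Ly6c1 were highest in the 3 BA groups, and Ly6d was highest in Apcfl/+ tumours with d30 BA next. Ly6e was present at 77.8 or more in every library and was highest in d4 small intestine, and Ly6c2 was low throughout, at 12.2 or less. In the order of group means, ranges of neighbouring groups overlapped for every member with 5 exceptions. These were Ly6a between d4 WT and adult WT small intestine, Ly6c1 between d30 BA under antibiotics and adult WT colon, Ly6d between d30 BA and BA tumours, Ly6e between d30 BA under antibiotics and adult WT colon, and Ly6g between BA tumours and Apcfl/+ tumours.

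**Figure D2:**
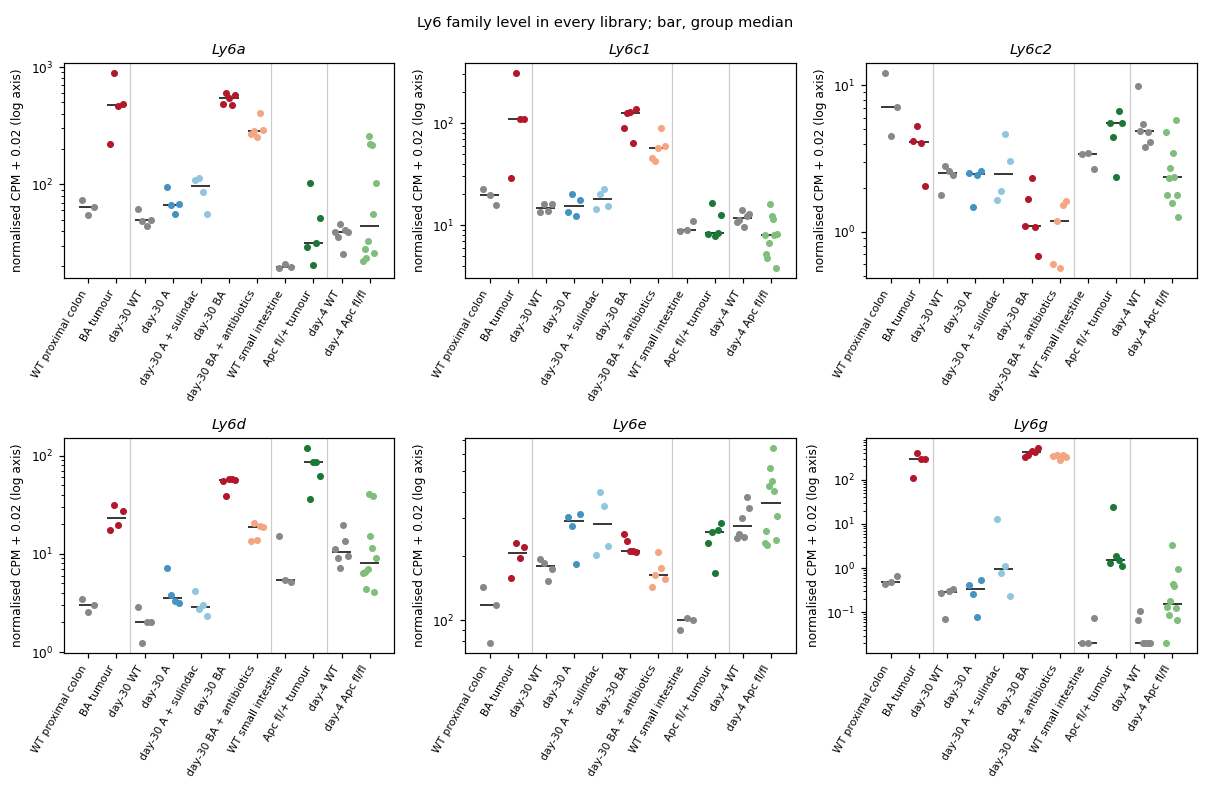
Level of each Ly6 gene in every library (points, normalised CPM + 0.02, log axis) with the group median (bar), by group. Ly6g lay between 112 and 523 in the 14 BA libraries and at 24.3 or less in the other 39, Ly6a and Ly6c1 were also highest in the BA groups with less contrast, and Ly6c2 was highest in adult WT colon.

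Ly6g, the neutrophil antigen, was nearly absent from normal intestine and abundant in every BA library. In d30 WT colon it had 0.260, 0.0524, 0.282 and 0.316 normalised CPM, from 18 reads in all, against 324, 369, 445, 424 and 523 in d30 BA. In adult WT colon the values were 0.420, 0.470 and 0.663, and in BA tumours 112, 411, 289 and 294. Every BA library lay far above every WT library, and the first BA tumour was the lowest of its group. The fitted log2 fold change was 10.77 (SE 0.26) at d30 and 9.05 (SE 0.62) in tumours. The ratio of summed reads was 1824 at d30 (95% counting interval 1154 to 3078) and 499 in tumours (359 to 717), where such intervals cover counting error only.

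Ly6a (Sca-1) stood higher in BA tissue as well, from a higher base in WT. Its levels were 61.5, 48.5, 44.5 and 50.1 in d30 WT and 483, 600.1, 541, 476 and 583 in d30 BA, a log2 difference of 3.38 (SE 0.11). In adult WT colon they were 73.5, 55.1 and 64.8 and in BA tumours 221, 893, 470.0 and 486, a log2 difference of 3.00 (SE 0.48). The groups did not overlap in either comparison, and among the tumours the first was the lowest and the second the highest.

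Ly6c1, a Ly6C gene of monocytes and endothelium, had 13.5, 15.9, 13.7 and 16.0 in d30 WT and 89.1, 127, 128, 63.8 and 137 in d30 BA (log2 difference 2.87, SE 0.21). In adult WT colon it had 22.7, 19.5 and 15.7 and in BA tumours 28.6, 311, 109 and 109 (log2 difference 2.85, SE 0.69, or 2.06 without the second tumour). The second tumour was again the highest and the first lay just above the WT libraries. The 10 genes of an endothelial list summed to 217 to 276 normalised CPM in d30 BA and 234 to 292 in d30 WT, which overlapped, and to 179 to 365 in BA tumours and 129 to 153 in adult WT colon, which did not. Their part in the tumour values was not tested.

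Ly6c2, the near-identical neighbour, did not share this pattern. Its levels were 1.77, 2.78, 2.58 and 2.42 in d30 WT and 1.08, 1.66, 2.32, 1.05 and 0.665 in d30 BA, and the ranges overlapped (log2 difference -0.85, SE 0.31). Adult WT colon had 12.2, 4.47 and 7.06 and BA tumours 4.16, 5.27, 4.02 and 2.03 (log2 difference -1.07, SE 0.43, or -0.61 without the first WT library, the highest). A list of 12 monocyte and macrophage genes summed to 1953 to 2465 normalised CPM in d30 BA and 831 to 1019 in d30 WT, but the median log2 difference over its 10 genes that passed the filter was 0.01, from -0.41 for Cd68 to 1.71 for Plac8. Its part in the Ly6c values was not tested.

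Ly6d, a marker of squamous and some progenitor cells, had 2.86, 1.20, 2.02 and 2.00 in d30 WT and 55.0, 38.5, 58.1, 57.7 and 56.1 in d30 BA. This was a log2 difference of 4.70 (SE 0.20), and the second d30 BA library was the lowest of its group. In adult WT colon it had 3.49, 2.53 and 2.98 and in BA tumours 17.4, 31.1, 19.6 and 27.2 (log2 difference 2.96, SE 0.30), so that the 4 tumours lay below all 5 d30 BA tissues but above all WT colon libraries. The squamous list summed to 120 to 314 normalised CPM in d30 BA and 62.3 to 123 in d30 WT.

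Ly6e, the interferon-inducible member, differed least. It had 195, 185, 153 and 173 in d30 WT and 254, 234, 211, 211 and 208 in d30 BA (log2 difference 0.33, SE 0.09). Adult WT colon had 143, 77.8 and 118 and BA tumours 157, 229, 195 and 220.2 (log2 difference 0.81, SE 0.27). In both comparisons all BA libraries lay above all WT libraries. This was so for 5 of the 6 members, all but Ly6c2, beside 22.5% of all genes tested at d30 and 14.6% in tumours, and nothing is read from these counts because the members were chosen with these comparisons known. The share of genes with an adjusted p under 0.05 was 55.1% at d30 and 13.2% in tumours.

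**Figure D3:**
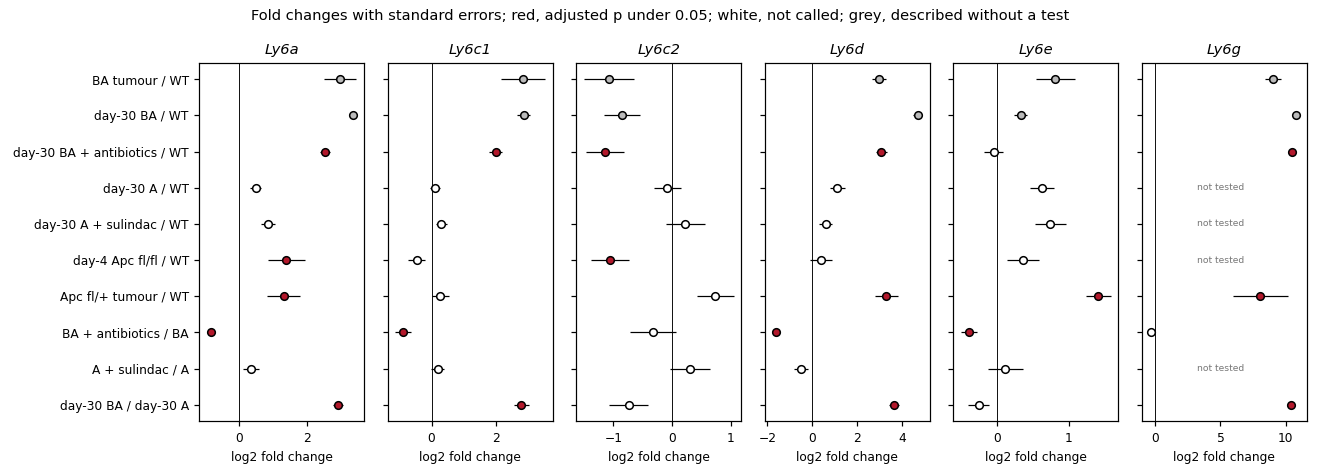
Log2 fold change of each Ly6 gene (points, with bars of 1 SE) in the 10 comparisons, zero marked by a line. Grey points mark the 2 comparisons known when the genes were chosen, red points an adjusted p under 0.05, white points those not called, and "not tested" a gene that did not pass the filter on low counts. Ly6g stood 9.05 or more above zero in BA tissue against WT or A, and its point for Apcfl/+ tumours (8.06) rests on 1 read in WT and depends on the prior count. Ly6g passed the filter in these comparisons only through the BA or tumour libraries, so its red points carry no test. Ly6e stayed within 1.41 of zero in every comparison.

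BA tissue was next set against A tissue, which differs from it by the Braf allele. Ly6a, Ly6c1 and Ly6d rose, and Ly6c2 and Ly6e did not pass the test. These were 3 of the 5 members other than Ly6g, beside 45.3% of all 17128 genes tested (21.7% higher). Ly6g also rose but, with 21 reads in A, passed the filter only through the BA libraries and is not counted. The d30 BA libraries are those of the comparison known when the genes were chosen. Ly6g had 0.406, 0.244, 0.0579 and 0.519 normalised CPM in A and rose by a log2 fold change of 10.37 (SE 0.32), for which no p is given. Ly6a, at 95.1, 67.2, 56.4 and 67.6 in A, rose by 2.93 (SE 0.15, adjusted p = 3.44e-07). The 5 BA libraries lay above the 4 A libraries for both, as for 18.1% of all genes. Ly6d had 7.24, 3.78, 3.30 and 3.16 in A, also below all BA libraries, and rose by 3.64 (SE 0.24, adjusted p = 1.74e-06). Ly6c1, at 12.3 to 20.2 in A, rose by 2.80 (SE 0.24, adjusted p = 1.01e-05). The values were -0.74 (SE 0.33, adjusted p = 0.0889) for Ly6c2 and -0.26 (SE 0.14, adjusted p = 0.168) for Ly6e. The epithelial list had 13 of 16 genes higher and 1 lower, with a median of 0.70, and the interferon list 6 of 16 lower. Of the lists of other cell types, the fibroblast list had 4 of 8 genes lower, the T cell list had 6 of 9 tested genes lower and 0 higher, the B and plasma cell list 5 of 8 lower and 0 higher, the endothelial list 2 of 10 lower and 0 higher, and the monocyte and macrophage list 2 of 10 in each direction, and their part in the Ly6 values was not tested. The p-values are from the quasi-likelihood test of edgeR with Benjamini-Hochberg adjustment over all genes tested, here and below.

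Loss of Alk5 without mutant Braf changed no member past the threshold. Of the 5 members that passed the filter, 0 were called in A against WT by edgeR or DESeq2, where edgeR called 0.141% of all genes. An unadjusted p under 0.05 was met by 3 members, all higher, beside 9.69% of all genes in either direction. This comparison, and those of A after sulindac and of BA under antibiotics with WT, share the d30 WT libraries with the comparison known at the choice of the genes. Ly6e had 305, 276, 184 and 316 in A and differed by 0.63 (SE 0.17, adjusted p = 0.383) from WT, Ly6a by 0.49 (SE 0.17, adjusted p = 0.48) and Ly6d by 1.11 (SE 0.33, adjusted p = 0.443). For Ly6d, at 3.16 to 7.24 in A, all 4 libraries lay above all WT libraries, which held for 2.48% of all genes in this direction, and for Ly6e all but replicate 3 did. Ly6c1 differed by 0.11 (SE 0.17, adjusted p = 0.81) and Ly6c2 by -0.08 (SE 0.24, adjusted p = 0.907). Ly6g had too few reads for a test, 21 in A and 18 in WT, a ratio of 1.35 (95% counting interval 0.687 to 2.70).

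None of the 5 members that passed the filter was called after sulindac against untreated A. In A tissue after sulindac against untreated A, 0 of 17568 genes were called by edgeR (0% of genes), 460 had an unadjusted p under 0.05, none of them a member, and DESeq2 called 5 genes, all lower. Ly6a had 109.9, 114, 85.4 and 56.0 after sulindac and differed by 0.36 (SE 0.24, adjusted p = 0.9998), Ly6e had 203, 400.2, 342 and 223 and differed by 0.11 (SE 0.25, adjusted p = 0.9998), and Ly6d had 4.15, 2.71, 2.99 and 2.29 and differed by -0.51 (SE 0.32, adjusted p = 0.9998). All of these ranges overlapped those of untreated A. Against WT, 0 of 5 members were called by edgeR, beside 0.0507% of all genes. An unadjusted p under 0.05 was met by 2 members, beside 9.06% of all genes, and DESeq2 called Ly6a. Ly6a then differed by 0.85 (SE 0.21, adjusted p = 0.346), with an adjusted p of 0.0346 in DESeq2. Ly6g had 12.9, 0.774, 1.12 and 0.213 after sulindac, against 0.519 or less in untreated A. Its ratio of summed reads to untreated A, 12.3 (95% counting interval 7.86 to 20.1), rests mostly on the first library. That library had the highest summed neutrophil list of its group, 33.8 normalised CPM against a group median of 24.9. It also had the highest summed epithelial list of its group, 21393 normalised CPM against 15262 to 18884 in the others.

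Ly6a, Ly6c1, Ly6d and Ly6e were lower under antibiotics in d30 BA tissue, and Ly6g did not pass the test. These were 4 of the 6 members called, all lower, beside 13% of all 16680 genes (8.5% lower). The d30 BA libraries are again those of the comparison known at the choice of the genes. Ly6d fell furthest, to 13.5, 20.5, 13.7, 19.0 and 18.9 from 38.5 or more in every untreated library, a log2 fold change of -1.63 (SE 0.15, adjusted p = 0.000148). Ly6a fell to 268, 286, 252, 403 and 291 from 476 or more, a change of -0.83 (SE 0.12, adjusted p = 0.00155). For both genes the groups did not overlap, which held for 7.37% of all genes in this direction.

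Calls for Ly6c1 and Ly6e under antibiotics were less stable. Ly6c1 had 45.1, 42.5, 57.4, 88.8 and 59.3, a change of -0.89 (SE 0.24, adjusted p = 0.0321), and its replicate 4 overlapped the untreated range. Ly6e had 144, 163, 209.9, 175 and 156, a change of -0.39 (SE 0.11, adjusted p = 0.0472), and its replicate 3 overlapped the untreated range. The call for Ly6c1 was lost without any of 6 single libraries (untreated 2, 3 or 5, treated 1, 2 or 5) and that for Ly6e without any single library but treated replicate 3. Ly6g had 339, 357, 283, 363 and 328 and a change of -0.32 (SE 0.11, adjusted p = 0.0851), with an adjusted p of 0.0405 in DESeq2, and Ly6c2 had a change of -0.32 (SE 0.39, adjusted p = 0.607). A list of interferon-induced genes had 0 of 15 tested genes higher and 5 lower, among them Irf7 at -1.6 (SE 0.22, adjusted p = 0.00139) and Oas1a at -1.33 (SE 0.20, adjusted p = 0.00172), with a list median of -0.79 beside 0.03 over all genes. The fibroblast list had a median of 1.19 with 0 of 8 genes called by edgeR. At an unadjusted p under 0.05, 7 of them were higher, beside 2503 of all 16680 genes. The list summed to 1156 to 7731 normalised CPM (median 1514) under antibiotics and 1087 to 1349 without. Its part in the lower Ly6 values was not tested. The epithelial list had 0 of 16 genes higher and 1 lower, Tjp3 at -0.28 (SE 0.07, adjusted p = 0.0196).

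**Figure D4:**
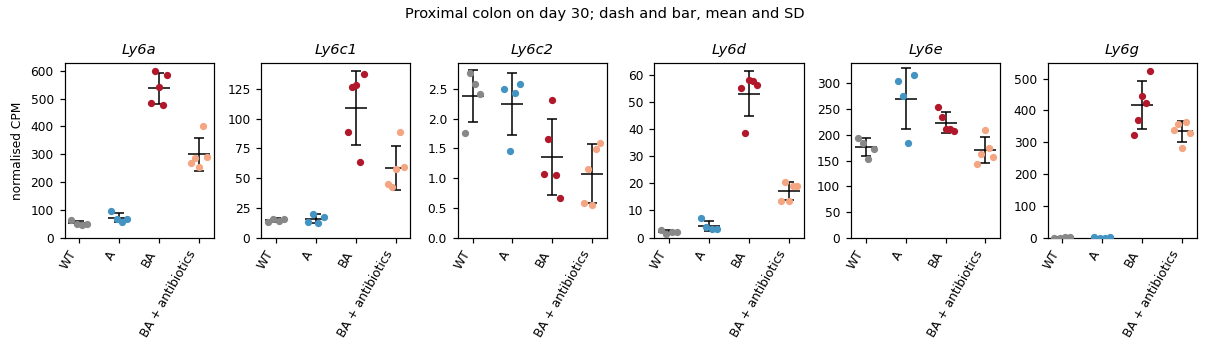
Level of the 6 Ly6 genes in d30 WT, A, BA and BA tissue under antibiotics (points are libraries, normalised CPM, linear axes from 0, dash and bar are the mean and SD). Ly6d and Ly6a of the treated libraries lay below every untreated BA library and above every WT library, whereas Ly6g of treated (283 to 363) and untreated BA (324 to 523) overlapped.

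Ly6a, Ly6c1, Ly6d and Ly6g were still higher than WT under antibiotics. Against d30 WT, 3 members other than Ly6g were higher and 1 lower, of 5, beside 39.6% of all 17569 genes (21.8% higher, 17.8% lower). Ly6g, with 18 reads in d30 WT, passed the filter only through the BA libraries and is not counted. Its log2 fold change was 10.47 (SE 0.22), for which no p is given. Ly6d was higher by 3.08 (SE 0.24, adjusted p = 8.08e-06), Ly6a by 2.56 (SE 0.15, adjusted p = 1.31e-06) and Ly6c1 by 1.99 (SE 0.21, adjusted p = 5.05e-05). Ly6c2 had 0.579, 1.16, 0.542, 1.50 and 1.6 and was lower, with all 5 treated libraries below all 4 WT libraries as for 15.4% of all genes, and a log2 fold change of -1.15 (SE 0.32, adjusted p = 0.0173). Ly6e differed by -0.05 (SE 0.13, adjusted p = 0.804).

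After acute loss of Apc in small intestine, Ly6a rose and Ly6c2 fell, 2 of the 5 members that passed the filter, beside 54.2% of all 17536 genes (27.5% higher, 26.7% lower). Ly6a had 25.5 (lowest), 39.6 (median) and 45.6 (highest) in d4 WT and 22.3 (lowest), 44.6 (median) and 257 (highest) in d4 Apcfl/fl, a log2 fold change of 1.39 (SE 0.55, adjusted p = 0.0393). Replicates 5, 6 and 7 of Apcfl/fl reached 216 to 257, replicates 8 and 10 had 56.1 and 103, and the other 5 lay at 33.2 or less, within or below the WT range. The call was lost without any of the libraries 5, 6 or 7 and without any single WT library. Ly6c2 had 3.75 (lowest), 4.86 (median) and 9.85 (highest) in WT and 1.24 (lowest), 2.33 (median) and 5.76 (highest) in Apcfl/fl, a change of -1.06 (SE 0.32, adjusted p = 0.0106).

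High Ly6a went with reads on Gm13394 in the d4 Apcfl/fl libraries. It in Apcfl/fl ranged from 25.9 to 257 in the 6 libraries over 10 CPM of Gm13394 and from 22.3 to 33.2 in the 4 under it. Within the libraries over 10 CPM, Ly6a was higher (2.01, adjusted p = 0.0399), and within those under it Ly6a was lower (-0.49, adjusted p = 0.0127). Ly6d, at 7.09 (lowest), 10.3 (median) and 19.5 (highest) in WT and 4.02 (lowest), 7.96 (median) and 40.5 (highest) in Apcfl/fl, differed by 0.39 (SE 0.50, adjusted p = 0.532) over all libraries and was lower within those under 10 CPM (-0.56, adjusted p = 0.0484). Ly6c2 had log2 fold changes of -0.67, adjusted p = 0.298 over and -1.48, adjusted p = 0.00241 under 10 CPM. Ly6c1 differed by -0.46 (SE 0.26, adjusted p = 0.138) over all libraries and by -1.04, adjusted p = 0.00127 under 10 CPM, and Ly6e by 0.36 (SE 0.22, adjusted p = 0.183). The split was made after the values had been seen, and the part of Gm13394 in these differences was not tested. The T cell list had 9 of 10 genes lower and the endothelial list 8 of 10 lower in d4 Apcfl/fl, with 0 higher in either, and their part in the lower Ly6c2 was not tested. Ly6g had 3 reads over the 6 WT libraries and 173 over the 10 Apcfl/fl libraries, a ratio of 30.19 (95% counting interval 10.2 to 148), with the fifth Apcfl/fl library at 3.25 normalised CPM and the others at 0.943 or less. That library also had the highest summed neutrophil list of its group, 98.3 normalised CPM. Replicate 10, with the next highest Ly6g, had 69.0, and the rest had 9.55 to 39.5. The d4 WT libraries had 50.4 to 79.3, with Ly6g at 0.0858 or less. The summed epithelial list of the fifth library, 13013, lay within the 10917 to 14015 of the others.

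Tumours of Apcfl/+ mice had more Ly6d and Ly6e than WT small intestine. Ly6a, Ly6d and Ly6e were called, all higher, 3 of the 5 members other than Ly6g, beside 61.5% of all 20567 genes (31.4% higher). Ly6g, with 1 read in WT, passed the filter only through the tumours and is not counted. Ly6d had 15.1, 5.42 and 5.13 in WT and 119.6, 36.1, 85.6, 86.7 and 62.3 in tumours, a log2 fold change of 3.30 (SE 0.52, adjusted p = 0.000757). Ly6e had 89.6, 103 and 99.9 in WT and 229, 258, 167, 264 and 284 in tumours, a change of 1.41 (SE 0.17, adjusted p = 0.000243). For both genes all tumours lay above all WT libraries, as for 26% of all genes. The interferon list, in contrast to Ly6e, had 14 of 16 genes lower and 0 higher, among them Isg15 at -3.19 (SE 0.45, adjusted p = 0.000475), and the fibroblast list had 6 of 8 higher, the endothelial list 6 of 10 higher and the T cell list 8 of 9 lower. Of the 8 squamous genes, 6 passed the filter, some of them only through the tumours where they were high. The part of these cell types in the Ly6 values was not tested.

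Ly6a in Apcfl/+ tumours overlapped WT and its call was fragile. It had 19.3, 21.2 and 19.8 in WT and 29.0, 102, 20.5, 31.7 and 51.3 in tumours, a log2 fold change of 1.32 (SE 0.48, adjusted p = 0.0404), which was lost without tumour 5 or without any single WT library. Ly6g had 0, 0 and 0.0540 in WT, 1 read in all, and 1.32, 24.3, 1.83, 1.50 and 1.09 in tumours, 658 reads. No p is given, because Ly6g passed the filter only through the tumours. The ratio was 314 (95% counting interval 56.1 to 1.24e+04), and the second tumour, which also had the highest Ly6a, held most of these reads. Even that tumour had less than a BA library, whose lowest value was 112. The second tumour had the lowest summed epithelial list of its group, 8473 normalised CPM against 11276 to 15238 in the others. Its summed neutrophil list, 209 normalised CPM, lay within the 162 to 598 of the others. Ly6c1 differed by 0.27 (SE 0.27, adjusted p = 0.404) and Ly6c2 by 0.74 (SE 0.31, adjusted p = 0.0668).

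The effect in Apcfl/+ tumours differed from that of acute Apc loss for Ly6c2, Ly6d and Ly6e. The tumour effect minus the acute effect was 1.78 (SE 0.53, adjusted p = 0.0162) for Ly6c2, 2.87 (SE 0.83, adjusted p = 0.0143) for Ly6d and 1.01 (SE 0.36, adjusted p = 0.0412) for Ly6e, 3 of 6 members, beside 24.7% of all 22202 genes (12.4% higher). For Ly6c2 the log2 fold change was -1.06 after acute loss and 0.74 in tumours, the latter not called. The difference of the effects was -0.12 (SE 0.86, adjusted p = 0.947) for Ly6a and 0.69 (SE 0.43, adjusted p = 0.255) for Ly6c1, and for Ly6g, with 1 and 3 reads in the WT groups, the test gave an adjusted p = 0.46. The call for Ly6e was lost without any of 13 single libraries and with another scaling, that for Ly6d without replicate 2 or 3 of the WT on the N9 background and that for Ly6c2 without replicate 3 of it. Stage and strain background cannot be told apart here, since the d4 mice were N6 and the tumour-bearing mice and their WT N9.

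Ly6g was next compared with genes of neutrophils and of epithelium, because its protein is used as a neutrophil marker. In d30 BA tissue, Ly6g stood far above a list of 23 neutrophil genes. As RPKM (reads scaled to gene length and library size), a scale on which levels of genes of different length can be compared, Ly6g had 344, 392, 473, 450.0 and 555, whereas the 23 genes together summed to 7.85, 7.49, 9.01, 4.50 and 6.33. The summed list in normalised CPM was 13.4 to 24.7 in d30 BA and 20.6 to 24.0 in d30 WT. Mpo and Elane, granule enzymes of neutrophil precursors, and Stfa2l1 were at 0 reads in all 5 d30 BA libraries, although Elane was also at 0 in every library of d30 WT and of Apcfl/+ tumours and Stfa2l1 in adult WT colon. S100a8, a major cytosolic protein of neutrophils, was at 0 to 0.246 normalised CPM. Against A, 0 of 7 tested neutrophil genes were higher and 3 lower in d30 BA, beside 21.7% and 23.6% of all genes. The other neutrophil genes did not pass the filter. The 7 ranged from Mmp9, a matrix metalloproteinase, at -1.64 (SE 0.37, adjusted p = 0.0045) to Padi4 at 1.30 (SE 0.67, adjusted p = 0.133). In BA under antibiotics against WT, 0 of 5 were called by edgeR and 0 had an unadjusted p under 0.05, beside 39.6% and 48.6% of all genes.

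In BA tumours Ly6g had 119, 436, 307 and 312 RPKM and the summed neutrophil list 31.8, 158, 49.1 and 63.4 RPKM, with the same order of the 4 tumours by either measure. Ly6a had this order too, at 221, 893, 470.0 and 486 normalised CPM. No neutrophil gene lay above Ly6g in any of the 14 BA libraries. Apcfl/+ tumours had neutrophil sums of 163, 155, 62.1, 116 and 226 RPKM but Ly6g at 1.40, 25.8, 1.94, 1.6 and 1.16 RPKM. In these tumours 2 to 12 neutrophil genes lay above Ly6g. Of 23 neutrophil genes 18 passed the filter there. Genes near 0 in WT can pass it through the tumours alone, so that counts of called genes are not given. The log2 differences of these 18 genes had a median of 2.70. They ranged from 0.23 (SE 0.19) for Itgam to 6.29 (SE 1.45) for Ltf, the gene of lactoferrin, with S100a8 at 5.69 (SE 0.91). Under antibiotics replicate 3 of d30 BA alone had raised neutrophil RNA, with a sum of 56.7 RPKM against 4.33 to 5.68 in the other 4. It had the lowest Ly6g of the group, 300.1 against 348 to 386 RPKM. Its summed epithelial list was also the lowest of the group, 25737 normalised CPM against 32573 to 38579.

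**Figure D5:**
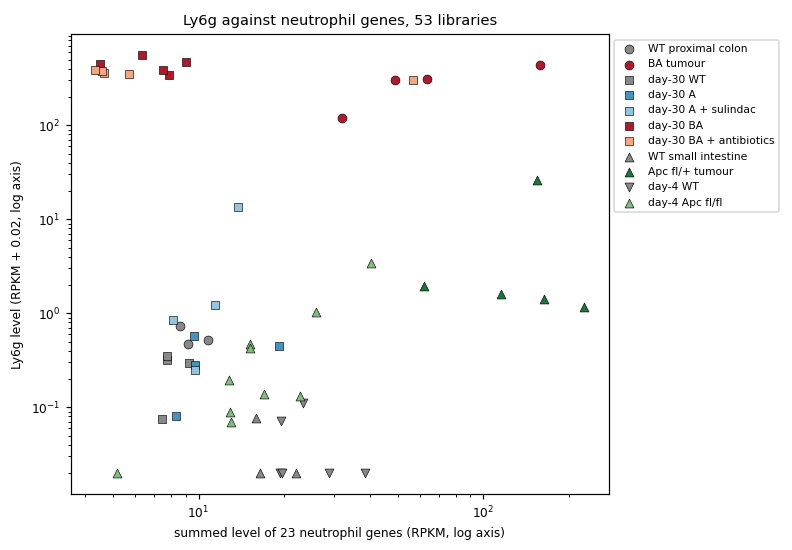
Ly6g against the summed level of 23 neutrophil genes in each library (points, RPKM, log axes, 0.02 added to Ly6g, coloured by group). The d30 BA libraries lay at high Ly6g (344 to 555) and low neutrophil sum (4.50 to 9.01), and the Apcfl/+ tumours at low Ly6g (1.16 to 25.8) and high neutrophil sum (62.1 to 226).

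The level of Ly6g minus the mean level of a list, both as log2 CPM with a prior count of 2, which compresses the change of a gene near 0 in a group, was compared between groups. No p is given for BA against A or WT, where Ly6g was near 0 in the controls and passed the filter only through the BA libraries, so that the groups had to separate. In d30 BA against A the difference was 10.56 for the neutrophil list (7 genes passing the filter), 9.42 for the epithelial list (16 genes) and 7.32 for a list of foetal and injury-associated epithelial genes (11 genes). In d30 BA under antibiotics against WT the differences were 10.44, 9.35 and 7.00. In the latter comparison the foetal list itself differed by 3.07, the epithelial list by 0.71 and the neutrophil list by -0.37, beside 10.06 for Ly6g. The differences from WT were 10.42, 9.60 and 7.12 in d30 BA and 6.23, 8.72 and 4.87 in BA tumours.

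In Apcfl/+ tumours, Ly6g was higher by 4.45 on this scale, beside 2.53 for the neutrophil list, 0.25 for the epithelial list and 3.88 for the foetal list. The excess over the epithelial list was 4.20, for which no p is given for the same reason. By two-sided exact permutation tests adjusted over 12 tests, that over the neutrophil list was 1.92 (exact permutation p = 0.0893, adjusted p = 0.134) and that over the foetal list 0.57 (exact permutation p = 0.982, adjusted p = 0.982). Ly6g passed the filter only through the tumours, and genes of these lists could pass it in that way too. Neither p therefore tells which list Ly6g followed. The 12 tests include those withheld here as bound to separate, whose small p can lower the adjusted p of the others. Under antibiotics the differences were -0.11, -0.24 and -0.12 for the 3 lists, with adjusted exact permutation p = 0.982, 0.148 and 0.333, so that a difference between Ly6g and a list was not detectable there. The foetal list was chosen with earlier results known, and genes such as Arhgap40, at 7.07 to 13.4 normalised CPM in d30 BA and 0 to 0.270 in A, passed the filter only through the group where they were high, so that counts of its genes that rose are not given. Its smallest difference was that of Ereg in BA against A, at 0.62 (SE 0.18, adjusted p = 0.0146), and of Areg in Apcfl/+ tumours, at 0.89 (SE 0.25, adjusted p = 0.0139), both ligands of the EGF receptor. Under antibiotics it had 2 of 11 higher, Anxa8 at 2.41 (SE 0.27, adjusted p = 0.000484) and Anxa1 at 0.41 (SE 0.11, adjusted p = 0.0347), and 4 lower, among them Krt7 at -0.88 (SE 0.15, adjusted p = 0.00426) and Krt23 at -1.43 (SE 0.29, adjusted p = 0.0085). Of all genes tested there, 4.53% were higher and 8.5% lower.

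Over the 53 libraries, the genes whose log2 level was most like that of Ly6g, among 13830 genes with a mean log2 CPM of at least 1, were Anxa3 (r = 0.959), F3 (0.950), Syt8 (0.942), Anxa1 (0.940) and Il1rn (0.937). F3 encodes tissue factor, Il1rn the interleukin-1 receptor antagonist, and Anxa1 and Anxa3 are annexins. The same measure with the 16 epithelial genes had a median of 0.42, with 10 foetal genes 0.72 and with the 4 neutrophil genes that reached this level -0.07. Within groups, as deviations from the group mean, the most similar genes were Anxa3 (0.788), Anxa1 (0.739), Tnip3 (0.729), Acsbg1 (0.695) and Ly6a (0.689), and the medians for the epithelial, foetal and neutrophil lists were 0.06, 0.36 and 0.31. These Pearson correlations describe libraries that share tissue, group and depth and carry no p.

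The other members had other nearest genes on the same measures. For Ly6a these were Ly6c1 (0.895), Ly6g (0.885) and Anxa3 (0.873) in level, and Slfn4 (0.800), Tat (0.788) and Anxa1 (0.776) within groups. Ly6c1 was nearest to Ly6a and, within groups, to Serpina3g (0.734), and shared exonic words with Ly6a as given above. Ly6d was nearest to Slc16a3 (0.860), a lactate transporter, and to Rdh10 (0.846). Ly6e was nearest within groups to Rbm43 (0.798), Bst2 (0.775) and Myd88 (0.769), where Bst2 encodes tetherin, an interferon-induced protein, and the 15 interferon genes at this level had a median of 0.49 with Ly6e, 0.60 with Ly6a and 0.22 with Ly6g. Ly6c2 had a median of 0.29 with the 4 neutrophil genes and -0.43 with the epithelial genes in level, and its nearest gene was Mrps36 (0.722).

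Among further genes of the Ly6/uPAR family, 15 in the chromosome 15 cluster and 22 elsewhere were in the table. Plaur, the urokinase receptor that names the fold, was higher in 4 of 8 tested comparisons, at 2.72 (SE 0.13, adjusted p = 2.38e-07) in BA under antibiotics against WT, 2.49 (SE 0.33, adjusted p = 0.000143) in BA against A, 1.79 (SE 0.33, adjusted p = 0.000258) after acute Apc loss and 2.89 (SE 0.22, adjusted p = 3.02e-05) in Apcfl/+ tumours. Ly6g6e was higher in the same 4 comparisons, by 1.19 to 4.12 on the log2 scale. Within the cluster, 2010109I03Rik was higher in BA against A at 3.00 (SE 0.47, adjusted p = 0.00044), and Lynx1, a modulator of nicotinic receptors, at 0.54 (SE 0.11, adjusted p = 0.00234). Psca, a prostate stem cell antigen gene, stood 3.22 (SE 0.53) higher in BA under antibiotics against WT. No p is given for Psca, because it passed the filter only through the BA libraries.

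In BA under antibiotics against WT, 3 of 5 tested genes of the cluster and 4 of 11 elsewhere were higher, beside 21.8% of all genes. In BA against A these were 2 of 4 and 4 of 10, beside 21.7%, and in Apcfl/+ tumours 5 of 7 and 4 of 11, beside 31.4%. Of the genes elsewhere 1 was lower in each of the 3 comparisons, and of those in the cluster 1 in BA against A. Genes near 0 in 1 group can pass the filter through the other group alone, as Psca did. Nothing is therefore read from these counts. Lypd8, which encodes a colonic secreted protein that keeps flagellated bacteria from the epithelium, was lower in BA under antibiotics against WT at -1.51 (SE 0.15, adjusted p = 3.68e-05), under antibiotics in BA at -1.30 (SE 0.16, adjusted p = 0.000698) and after acute Apc loss at -0.89 (SE 0.29, adjusted p = 0.0161), and higher in Apcfl/+ tumours at 0.72 (SE 0.28, adjusted p = 0.0464). Under antibiotics Plaur differed by 0.08 (SE 0.15, adjusted p = 0.748) and 0 of 4 tested genes of the cluster were called by edgeR. Of these, 1 had an unadjusted p under 0.05, which was higher, beside 30.8% of all genes in either direction. Ly6i, which shares words with Ly6g and Ly6a, was at 1.61 normalised CPM or less in every library.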

How the data were processed

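RNA from whole intestinal tissue of 53 mice in 11 groups was sequenced as paired reads of 36 bases. The authors trimmed reads with Trim Galore 0.6.4, aligned them with HISAT2 2.1.0 to GRCm38 and counted them with featureCounts 1.6.4, and deposited raw counts for 55421 Ensembl genes (0 columns were left unused, and 267 identifiers had no symbol in the GENCODE M21 annotation). Strand and multi-mapping settings are not given in the sources used here.

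The counts were tested per comparison with the edgeR quasi-likelihood test (edgeR 4.0.16, limma 3.58.1, R 4.3.3) after filterByExpr and TMM scaling, with the groups of that comparison alone and an adjusted p threshold of 0.05 over all genes tested. Alternatives were DESeq2 1.42.0, RLE scaling, no low-count filter, a replicate block, all 5 day-30 groups in 1 fit and leaving out each library. The steps were tested on simulated data. Ly6g did not pass the filter in A against WT, A after sulindac against WT or A, and acute Apcfl/fl against WT, and reads summed over libraries were compared there with an exact counting interval. The smallest level discernible in a library was taken as 3 counts. Such intervals and floors cover counting error only.

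Samples were grouped by their labels. Equal replicate numbers belong to different mice. Nothing ties the mice of a group to separate litters or batches, so p-values measure the spread between these samples. No pair of libraries was alike within sampling noise. The members and all gene lists were chosen with earlier results of these data known. Genes named are the members, the extremes of each list with up to 5 more, every neutrophil gene for its level, the other family members called most often, and the 5 genes most like a member. Sequences were read from the GRCm38 genome with GENCODE M21 and from RefSeq, and identity was computed over coding sequence in place of protein.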

Additional observations from a re-analysis of the deposited data

Results flagged for a closer look

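In 8 of 54 sets of libraries (a member in a group of 4 to 10 libraries), 1 library stood apart from the rest by Dixon's criterion, which chance meets in about 1 in 20. For Ly6g these were replicate 2 of the Apcfl/+ tumours (24.3 normalised CPM), replicate 1 of A after sulindac (12.9) and replicate 5 of d4 Apcfl/fl (3.25), each the highest of its group. For Ly6d they were replicate 1 of d30 A, the highest at 7.24, and replicate 2 of d30 BA, the lowest at 38.5. For Ly6c2 they were replicate 1 of d4 WT, the highest at 9.85, and replicate 2 of d30 A, the lowest at 1.46. For Ly6a it was replicate 4 of d30 BA under antibiotics, the highest at 403.

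The effect in Apcfl/+ tumours differed from that of acute Apc loss, by the test of the difference itself (edgeR, 3 of 6 members), by 1.78 on the log2 scale for Ly6c2, 2.87 for Ly6d and 1.01 for Ly6e. Strain background and stage cannot be told apart in this contrast.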

How the results depend on the processing

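Most results kept their side of the threshold. DESeq2 called 1 member in A after sulindac against WT, where edgeR called 0. Equal replicate numbers did not pair the libraries, since the correlations of their deviations were not all above 0.1 in any comparison. With the replicate block, the number of members called fell from 2 to 1 after acute Apc loss and from 4 to 2 under antibiotics. Calls over all genes went from 4816 higher and 4688 lower to 4391 and 4628 after acute Apc loss. Under antibiotics they went from 755 and 1417 to 320 and 964. In d4 libraries over 10 CPM of Gm13394, a split chosen after seeing the data, 1 member was called, and in those under it 4, with Ly6a at -0.49 and Ly6d at -0.56, both reversed. Over all genes, 2450 were higher and 3040 lower of 18055 over 10 CPM, and 4942 and 5259 of 17208 under it. Leaving out 1 library in turn gave 1 to 2 called members after acute Apc loss, 2 to 4 under antibiotics, 3 to 5 in Apcfl/+ tumours, 4 to 5 in BA against A, and 0 to 3 for the difference between Apc effects. The median log2 difference of the members was 2.31 to 3.16 in BA tumours and 3.06 to 3.22 in d30 BA. Ly6g minus the foetal list was 5.61 in BA tumours and 8.60 in d30 BA with a median over list genes in place of the mean. Ly6g minus the epithelial list in Apcfl/+ tumours ranged from 3.29 to 4.47 with 1 library left out, where 5 against 2 libraries are too few for any p to pass after adjustment. The counts of members include Ly6g where it passed the filter. With RLE scaling the median of all genes in the difference between Apc effects moved from -0.02 to -0.16 and the calls from 2759 higher and 2727 lower to 2100 and 3458, and Ly6e was lost (adjusted p = 0.0645). Over all genes, DESeq2 called 86 higher and 50 lower in A against WT where edgeR called 17 and 8, and 54 and 56 in A after sulindac against WT where edgeR called 9 and 0. Depth limits Ly6g and Ly6c2 where a group holds few reads. The cause of these changes was not tested.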
